A study of Mus musculus with 14 samples.

Results

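Complement and coagulation genes are described here across 4 groups of mouse liver tumours. They were chosen by name as 40 symbols for liver-made complement factors, clotting factors, fibrinogen chains and their regulators and inhibitors, out of 29923 symbols in the expression table. All 40 were found, and all 40 passed the filter that left 13466 genes to test, a transcript level of at least 1 TPM (a transcript level scaled for transcript length and for the library's total) in at least 3 tumours. By role, 8 are recognition molecules and proteases of the classical and lectin pathways, 3 belong to the central and alternative pathway, 6 to the terminal pathway and 3 are complement regulators. The coagulation members are 3 fibrinogen chains, 4 vitamin K dependent clotting factors, 5 contact system genes, 2 cofactor and crosslinking factors, 4 anticoagulants and 2 fibrinolysis genes.

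The study sequenced bulk mRNA of spontaneous hepatocellular carcinomas, raised in C57BL/6 mice by injecting plasmids into the tail vein in a large, fast volume together with a plasmid for the SB100 transposase, which inserts the transposons into the genome. It asked what overexpression of Aoah does in these tumours, with and without added antigens; Aoah encodes acyloxyacyl hydrolase, an enzyme that removes acyl chains from bacterial lipopolysaccharide. The 4 Luc Aoah tumours carried MYC with luciferase (MYC-Luc) and the Aoah plasmid PKT2/CLP-Aoah, and the 4 Luc vector tumours MYC-Luc and the empty plasmid PKT2/CLP-Vec. The 3 LucOS Aoah and 3 LucOS vector tumours had MYC-LucOS in place of MYC-Luc, which adds the OVA+SIN+SIY antigens, with the same Aoah or empty plasmid. All groups thus share the MYC transgene, driven by the EF1a promoter. The series text also describes beta-catenin activation from a plasmid pT3-N90-CTNNB1, and the treatment protocol an anti-PD1 experiment, but no tumour's own description mentions either; the sources used here give neither sex nor age. The labels number the tumours and do not say that each came from its own mouse, so p-values measure the spread between these tumours.

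Aoah itself stood at 284 to 685 TPM in Luc Aoah tumours, against 0.74 to 54.8 TPM in Luc vector tumours, where Luc vector 1 (18.6 TPM) and Luc vector 3 (54.8 TPM) were above the other two. In LucOS Aoah tumours it stood at 576 to 931 TPM, against 1.28 to 3.43 TPM in LucOS vector tumours. Between 11478 and 12836 genes reached 1 TPM in a tumour. Mitochondrially encoded genes took 3.41% to 8.45% of the TPM in 13 tumours and 16.6% in LucOS Aoah 3. Several tumours stood apart across the members: Luc Aoah 3 held the lowest value of its group for 37 of the 40, LucOS Aoah 3 the highest for 38, LucOS vector 1 the lowest for 39 and LucOS vector 2 the highest for 37. TPM keeps no read depth, so the depth behind each value is unknown and precision is given by the spread between tumours. In bulk tissue, fewer cells of a type and less RNA per cell cannot be told apart.

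Complement is a cascade of plasma proteases. Recognition molecules bind a surface and activate proteases that cleave C4, C2 and C3, and the terminal components C5 to C9 then assemble a pore in the target membrane. Coagulation is a parallel cascade in which clotting factors activate thrombin, thrombin turns fibrinogen into fibrin, and plasmin dissolves it again. Hepatocytes make most of these proteins, many of which belong to the acute phase response. The hepatocyte marker albumin, Alb, averaged 7185 ± 4505 TPM in Luc Aoah and 2357 ± 634 TPM in Luc vector tumours (SD, n = 4 each), and all 15 hepatocyte markers passed the filter.

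With Aoah in Luc tumours, complement and coagulation genes moved both ways. The pore components C8g and C9, the regulator C4bp, the mannose-binding lectins Mbl1 and Mbl2 and the contact protease Klkb1 were higher. All 3 fibrinogen chains, protein S (Pros1), antiplasmin (Serpinf2), both kininogens (Kng1 and Kng2), C1ra and complement factor I (Cfi) were lower. That makes 6 higher and 9 lower of 40, where 7.93% of all genes tested were called higher and 14.3% lower (limma on log2(TPM + 1), Benjamini-Hochberg adjusted p under 0.05 over all genes). Of the 20 complement members 5 rose and 2 fell; of the 20 coagulation members 1 rose and 7 fell. The median log2 change was -0.41 over the members and -0.24 over all genes; it was -0.20 over the complement members and -0.72 over the coagulation members. Because the median of all genes lay below 0, each tumour was also centred on its median gene: 8 members were then higher, with C8a and Cfp added, and 8 lower, with C3 added and Cfi and Kng1 lost, and the split over all genes was 2145 higher and 1975 lower, against 1068 higher and 1920 lower as deposited. Counted by separation, 6 members had all Luc Aoah tumours above all Luc vector tumours and 14 had all below, where 11.8% and 9.10% of all genes did so.

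**Figure D1:**
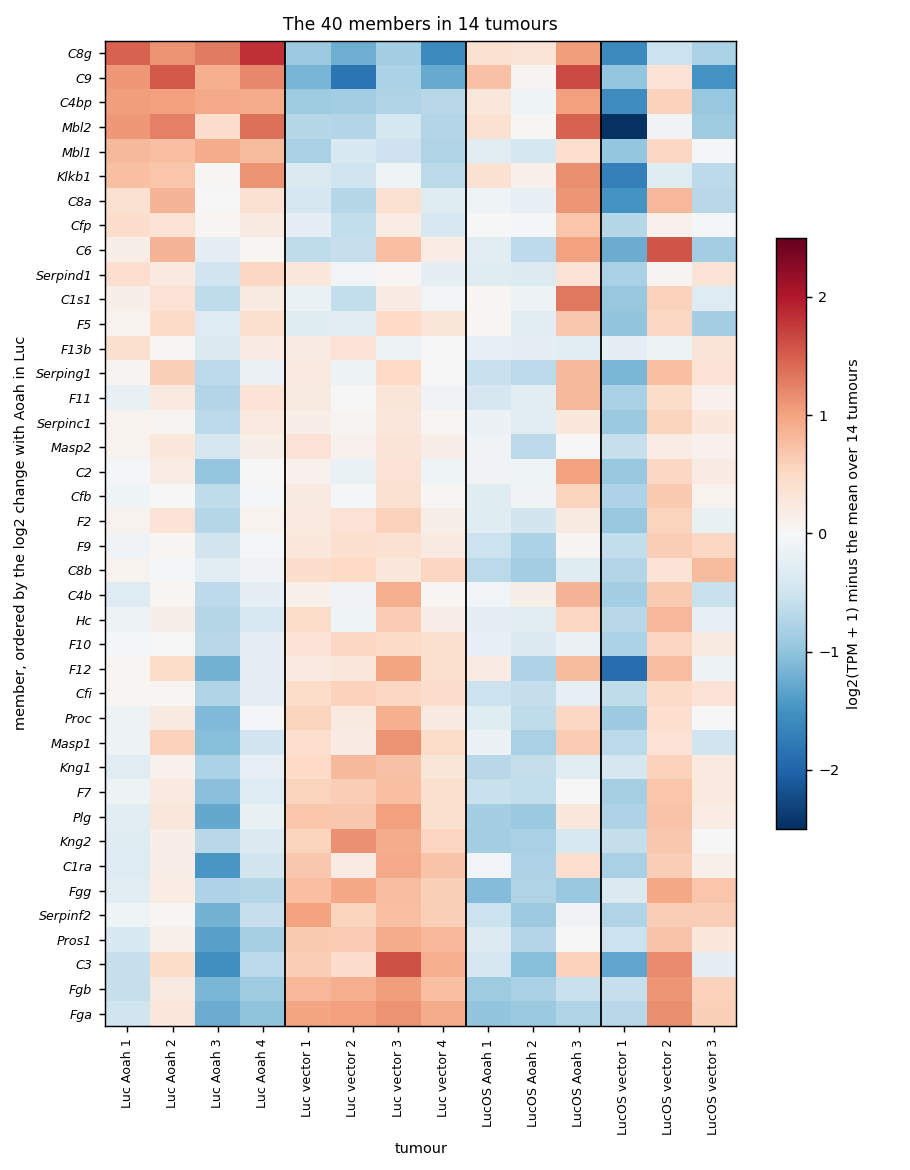
Each cell of the map gives log2(TPM + 1) of one member in one tumour minus that member's mean over 14 tumours, with members down the page in the order of their log2 change with Aoah in Luc tumours (2.57 for C8g at the top, -1.63 for Fga at the bottom). The top rows are red in Luc Aoah and blue in Luc vector tumours. The bottom rows are mostly the reverse, but Luc Aoah 2 lies above the mean for several of them, among them all fibrinogen chains. LucOS vector 1 is blue for nearly every member.

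Leaving out single tumours moved the count of lower members more than that of higher ones. The lower count was 5 without Luc Aoah 3, Luc vector 1 or Luc vector 3, 4 without Luc Aoah 4, and 14 without Luc Aoah 2 or without LucOS vector 1, while the higher count ranged from 4 to 6. The calls over all genes moved in most of the same settings, though little without LucOS vector 1. Lower calls were 1920 with all tumours, 434 without Luc Aoah 3, 603 without Luc vector 1 and 386 without Luc vector 3. They were 335 without Luc Aoah 4, 4051 without Luc Aoah 2 and 2037 without LucOS vector 1. Without Luc vector 4 they were 454, with 7 members lower. Without Luc vector 2 they were 3343, with 9 members lower. Higher calls over all genes ranged from 520 to 1214. Without both vector tumours with raised Aoah, Luc vector 1 and 3, C8g and C9 still passed and the other 13 called members did not, with 265 higher and 90 lower calls over all genes. All 15 kept their direction there, and their log2 changes moved by at most 0.28, with 2 vector tumours left in the group.

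The terminal pathway held the largest rises in Luc. C8g, the gamma chain of C8 and a protein of the lipocalin family, had 141, 110.4, 125 and 180.3 TPM in Luc Aoah tumours, against 26.1, 21, 27.2 and 16 TPM in Luc vector tumours. No Luc Aoah tumour was below 110 TPM and no Luc vector tumour above 27.2 TPM, a log2 change of 2.57 ± 0.26 (SE), adjusted p = 5.82e-05. In the antigen model C8g had 65.8, 62.6 and 104 TPM in LucOS Aoah tumours, against 16, 34.4 and 28.3 TPM in LucOS vector tumours. These groups did not overlap either (log2 change 1.55 ± 0.30 (SE), adjusted p = 0.0292), and C8g was the single member called there.

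C9, the subunit that polymerizes into the wall of the pore, had 66.8, 91.7, 58.3 and 72.5 TPM in Luc Aoah tumours, against 13.3, 8.07, 17.5 and 12.4 TPM in Luc vector tumours. The groups were separate, with a log2 change of 2.43 ± 0.38 (SE), adjusted p = 0.00100. C9 had 52, 32.8 and 99.2 TPM in LucOS Aoah tumours, against 15.5, 39.96 and 10.4 TPM in LucOS vector tumours. LucOS Aoah 2 lay under LucOS vector 2, so these groups overlapped, and the log2 change was 1.51 ± 0.44 (SE), adjusted p = 0.128. The other 4 terminal members passed in neither model. C8a and C8b, which encode the other chains of C8, had log2 changes of 0.67 and -0.51 in Luc and of 0.71 and -0.75 in LucOS, while C5 (Hc) and C6 stood at -0.56 and 0.27 in Luc.

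Since C8 is built from one alpha, one beta and one gamma chain, the levels of its genes were set against each other within each tumour, a choice made after the values were seen and given with no test. TPM is scaled for length, so levels of different genes can be compared. The ratio of C8g to C8b was 2.01 to 3.40 in Luc Aoah tumours, against 0.195 to 0.398 in Luc vector tumours. Both genes were already separate between these Luc groups, in opposite directions, so the ratio had to separate too. It was 1.89 to 2.28 in LucOS Aoah tumours, against 0.286 to 0.480 in LucOS vector tumours. C8g was thus the more abundant transcript of the pair in all 7 Aoah tumours and the less abundant one in all 7 vector tumours. That did not hold against C8a. The ratio of C8g to C8a was 1.63 to 3.73 in Luc Aoah tumours, against 0.537 to 0.948 in Luc vector tumours. It was 1.282 to 1.966 in LucOS Aoah tumours, against 0.517 to 1.277 in LucOS vector tumours. C8g was above C8a in LucOS vector 1 (1.277) and LucOS vector 3 (1.252). The ratio of C9 to C8b was 1.08 to 2.17 over the LucOS Aoah tumours, against 0.106 to 0.559 over the LucOS vector tumours, so these groups separated on the ratio although the C9 level itself overlapped.

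Among recognition molecules, the mannose-binding lectins rose in Luc tumours. They bind sugars on microbial surfaces and carry the proteases Masp1 and Masp2. Mbl1 had 117, 112, 128 and 115 TPM in Luc Aoah tumours, against 37.3, 51, 45.8 and 39.2 TPM in Luc vector tumours. The groups did not overlap (log2 change 1.43 ± 0.27 (SE), adjusted p = 0.00352). In the antigen model Mbl1 had 54, 48.9 and 88.7 TPM in LucOS Aoah tumours, against 33.3, 95.9 and 64 TPM in LucOS vector tumours, with overlapping groups and a log2 change of 0.06 ± 0.31 (SE), adjusted p = 0.975. The difference between its 2 Aoah effects had the smallest p of the members, at -1.37 ± 0.41 (SE), adjusted p = 0.443, and did not pass.

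Mbl2 had 198, 224, 128 and 243 TPM in Luc Aoah tumours, against 56.5, 55.6, 68.6 and 56.1 TPM in Luc vector tumours. The groups were separate and the log2 change was 1.69 ± 0.41 (SE), adjusted p = 0.0150, a call lost without Luc Aoah 4 (adjusted p = 0.0551). In the antigen model Mbl2 had 123, 95.8 and 263 TPM in LucOS Aoah tumours, against 16.1, 87.8 and 50.3 TPM in LucOS vector tumours. The LucOS groups were separate as well, with a larger spread and a log2 change of 1.78 ± 0.48 (SE), adjusted p = 0.104. Masp1 and Masp2 had log2 changes of -0.82 and -0.22 in Luc and passed in neither model. The ratio of Mbl2 to Masp2 was 2.40 to 3.09 in Luc Aoah tumours, against 0.615 to 0.765 in Luc vector tumours.

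C1s1 and C1ra encode the proteases of the C1 complex, which starts the classical pathway. C1s1 had 59.9, 70.05, 34.4 and 63.5 TPM in Luc Aoah tumours, against 48.2, 35.2, 62.9 and 51.9 TPM in Luc vector tumours, with overlapping groups and a log2 change of 0.18 ± 0.36 (SE), adjusted p = 0.723. It had 56, 49.3 and 137 TPM in LucOS Aoah tumours, against 27.6, 81.6 and 43.5 TPM in LucOS vector tumours, again with overlap (log2 change 0.64 ± 0.42 (SE), adjusted p = 0.612). C1ra, named here after its value was seen, had 62.4, 88, 27.8 and 56.4 TPM in Luc Aoah tumours, against 125, 90.5, 153 and 129 TPM in Luc vector tumours. Its Luc groups were separate, and C1ra fell (log2 change -1.16 ± 0.36 (SE), adjusted p = 0.0383). This call was lost without any one of 8 tumours, namely Luc Aoah 1, 3 or 4, Luc vector 1, 3 or 4, LucOS Aoah 1 or LucOS vector 3 (adjusted p up to 0.121). C1ra had 74.6, 45.7 and 105 TPM in LucOS Aoah tumours, against 44.2, 120.2 and 85.3 TPM in LucOS vector tumours, with overlap (-0.11 ± 0.42 (SE), adjusted p = 0.963).

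The ratio of C1ra to C1s1 was 0.808 to 1.26 in Luc Aoah tumours, against 2.43 to 2.59 in Luc vector tumours. For LucOS the range was 0.767 to 1.33 with Aoah, against 1.47 to 1.96 with the vector. Of the 50-base words of C1ra transcripts, 50.8% also occur in its copy C1rb, and 21.8% of those of C1s1 in C1s2, so the split of reads within each pair is uncertain. The substrates C2 and C4b passed in neither model (-0.25 and -0.54 in Luc); C4b shares 34.6% of its words with C4a, and C2 shares 38.7% with the gene model Gm20547.

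The central and alternative pathway held no call in the limma fit. C3, whose cleavage is the step at which the pathways join, had 601, 1237, 308 and 567 TPM in Luc Aoah tumours, against 1384, 1215, 2698 and 1692 TPM in Luc vector tumours. Luc Aoah 2 lay above Luc vector 2, so the groups overlapped, and the change of -1.47 ± 0.51 (SE), adjusted p = 0.0526 did not pass. C3 had 673, 428 and 1349 TPM in LucOS Aoah tumours, against 366, 2050.1 and 768 TPM in LucOS vector tumours, with the largest SE of the members described by tumour and a change of -0.19 ± 0.59 (SE), adjusted p = 0.952. Properdin, Cfp, which stabilizes the alternative pathway convertase and is made largely by leukocytes, had 32, 30.3, 24.3 and 27.6 TPM in Luc Aoah tumours, against 19.5, 15, 27 and 17.6 TPM in Luc vector tumours. Luc vector 3 lay above Luc Aoah 3 (log2 change 0.53 ± 0.24 (SE), adjusted p = 0.108). Cfp had 23.2, 22.5 and 38.8 TPM in LucOS Aoah tumours, against 14, 25.4 and 22.8 TPM in LucOS vector tumours, with overlapping groups and a log2 change of 0.42 ± 0.28 (SE), adjusted p = 0.613. Factor B, Cfb, had log2 changes of -0.34 in Luc and 0.06 in LucOS, and 73.0% of its words also occur in the gene model Gm20547.

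Of the regulators, C4bp rose and Cfi fell in Luc. C4bp encodes a chain of C4b-binding protein, the cofactor with which factor I cleaves C4b. It had 212, 211, 200.3 and 196 TPM in Luc Aoah tumours, against 55, 55.9, 60.7 and 63.6 TPM in Luc vector tumours. All Luc Aoah tumours lay within 196 to 212 TPM and all Luc vector tumours within 55.0 to 63.6 TPM, a log2 change of 1.78 ± 0.35 (SE), adjusted p = 0.00442. C4bp had 125, 95.8 and 212 TPM in LucOS Aoah tumours, against 34.2, 154 and 53.2 TPM in LucOS vector tumours, where LucOS vector 2 lay above 2 of the LucOS Aoah tumours (log2 change 1.04 ± 0.40 (SE), adjusted p = 0.284).

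Factor I, Cfi, the protease that uses this cofactor, had 274, 272, 157 and 224 TPM in Luc Aoah tumours, against 366, 396, 377 and 358 TPM in Luc vector tumours. The groups were separate but the change was small (-0.72 ± 0.24 (SE), adjusted p = 0.0454), and it was lost without any one of 9 tumours (adjusted p up to 0.147), namely any Luc vector tumour, Luc Aoah 1, 3 or 4, LucOS Aoah 1 or LucOS vector 3. Cfi had 183, 176 and 231 TPM in LucOS Aoah tumours, against 170.4, 367 and 342 TPM in LucOS vector tumours, with overlap and a change of -0.51 ± 0.28 (SE), adjusted p = 0.504. The ratio of C4bp to Cfi was 0.773 to 1.27 in Luc Aoah tumours, against 0.141 to 0.178 in Luc vector tumours. Each gene was already separate between these groups, in opposite directions, so the ratio had to separate too. The C1 inhibitor, Serping1, passed in neither model (-0.18 in Luc and -0.13 in LucOS).

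**Figure D2:**
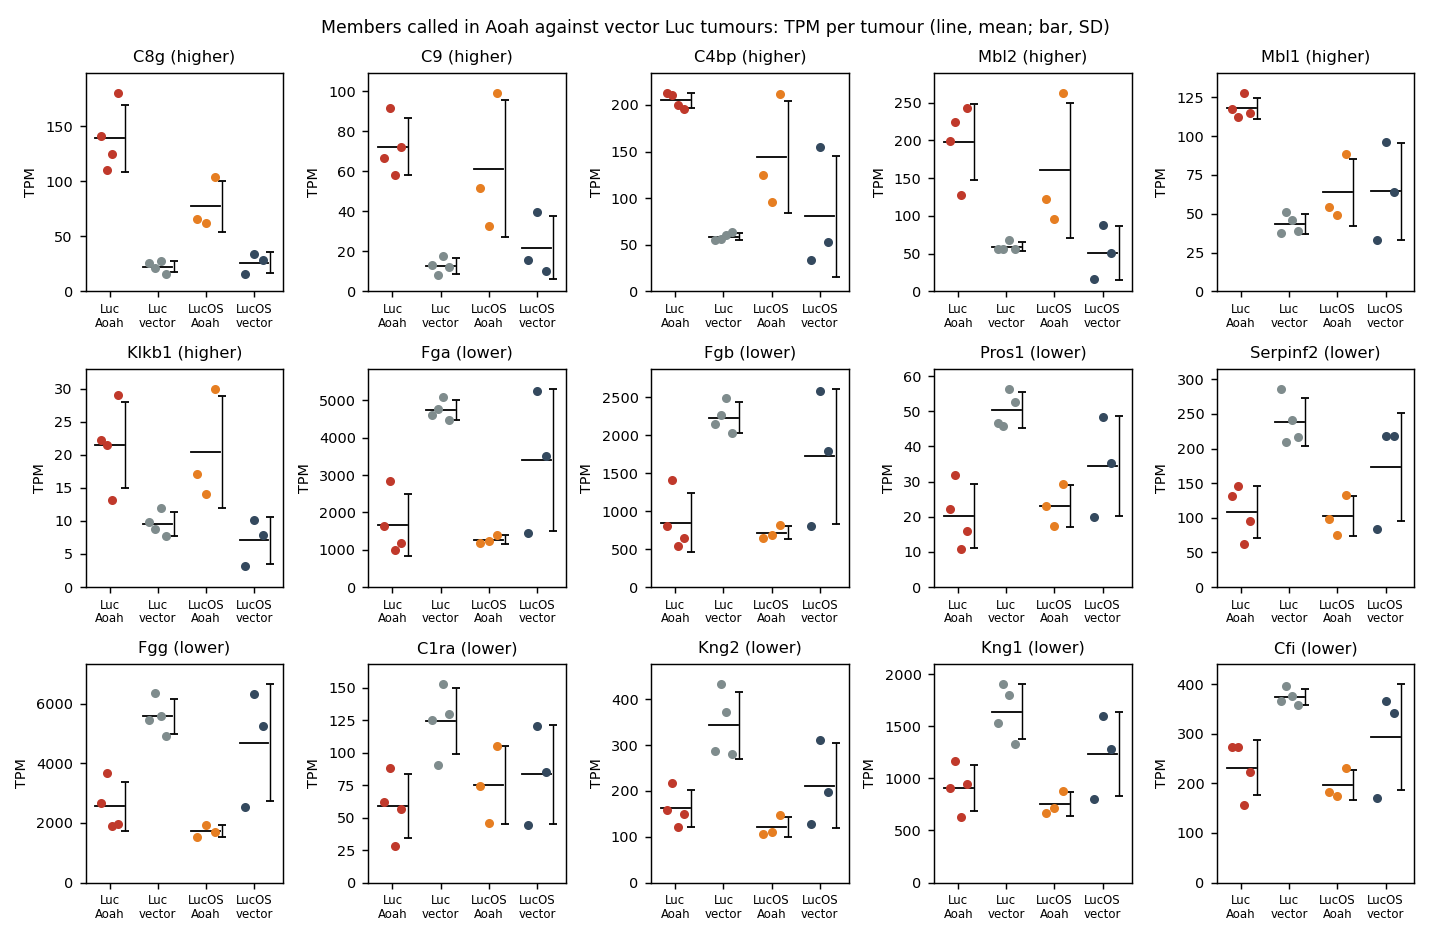
Points are TPM of single tumours for the 6 members higher and 9 members lower with Aoah in Luc tumours, with the mean as a line and the SD as a bar for each group of 4 (Luc) or 3 (LucOS) tumours; each axis starts at 0. In Luc, all 15 have separate Aoah and vector groups, and in LucOS the 3 vector tumours of Fga spread from 1447 to 5258 TPM, while those of C8g stay between 16 and 34.4 TPM.

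Fibrinogen, the soluble precursor of fibrin, is built from 3 chains whose genes lie side by side on chromosome 3, and its summed level was the highest of any role in every group. Fga, the alpha chain, had 1644, 2840.1, 991 and 1167 TPM in Luc Aoah tumours, against 4599, 4775, 5098 and 4474 TPM in Luc vector tumours. The highest Luc Aoah tumour was Luc Aoah 2 and it stayed below every Luc vector tumour (log2 change -1.63 ± 0.36 (SE), adjusted p = 0.00835). Fga had 1173, 1221 and 1396 TPM in LucOS Aoah tumours, against 1447, 5258 and 3516 TPM in LucOS vector tumours. LucOS vector 1 lay just above the highest LucOS Aoah tumour, and the log2 change was -1.25 ± 0.41 (SE), adjusted p = 0.190.

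The beta chain gene, Fgb, had 804, 1406, 541 and 645 TPM in Luc Aoah tumours, against 2144, 2259, 2495 and 2022 TPM in Luc vector tumours. These groups were separate too, with a log2 change of -1.49 ± 0.33 (SE), adjusted p = 0.00873. Fgb had 649, 685 and 818 TPM in LucOS Aoah tumours, against 805, 2578 and 1790.3 TPM in LucOS vector tumours, where LucOS vector 1 lay just under LucOS Aoah 3 (log2 change -1.12 ± 0.38 (SE), adjusted p = 0.206). Fgg, the gamma chain, had 2676, 3680.1, 1911 and 1982 TPM in Luc Aoah tumours, against 5472, 6356, 5593 and 4914 TPM in Luc vector tumours. It was lower in every Luc Aoah tumour (-1.17 ± 0.27 (SE), adjusted p = 0.0121), a call lost without Luc Aoah 4 (adjusted p = 0.0507). Fgg had 1542, 1939 and 1694 TPM in LucOS Aoah tumours, against 2524, 6328 and 5252 TPM in LucOS vector tumours, with no overlap and a log2 change of -1.35 ± 0.32 (SE), adjusted p = 0.0608, the second smallest p of the members there.

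The sum of the 3 chains averaged 5072 ± 2036 TPM in Luc Aoah tumours and 12550.4 ± 917 TPM in Luc vector tumours (SD, n = 4 each). It averaged 3705 ± 297 TPM in LucOS Aoah tumours and 9832 ± 4736 TPM in LucOS vector tumours (SD, n = 3 each). The ratio of Fgb to Fga stayed between 0.452 and 0.586 in all 14 tumours. That of Fgg to Fga varied more, with 1.30 to 1.93 in Luc Aoah tumours, against 1.10 to 1.33 in Luc vector tumours. It was 1.21 to 1.59 in LucOS Aoah tumours, against 1.20 to 1.74 in LucOS vector tumours. The groups overlapped in both models, and the mean was lower with Aoah in LucOS (1.37 against 1.48).

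The 3 promoters are printed because these genes are neighbours with changes of similar size in both models. Each line gives the 250 bases before the RefSeq transcript start in build GRCm38.p6, read in the direction of the gene, at chr3:83025903-83026152 on the plus strand for Fga, chr3:83049864-83050113 on the minus strand for Fgb and chr3:83007474-83007723 on the plus strand for Fgg. Capitals mark matches, on either strand, to 3 patterns chosen after the results were seen: CTGGGA, the core of a response element for interleukin-6 described in acute phase genes, TTGCNNAA, a form that C/EBP factors bind, and TTCNNNGAA, a form that STAT factors bind.
Fga: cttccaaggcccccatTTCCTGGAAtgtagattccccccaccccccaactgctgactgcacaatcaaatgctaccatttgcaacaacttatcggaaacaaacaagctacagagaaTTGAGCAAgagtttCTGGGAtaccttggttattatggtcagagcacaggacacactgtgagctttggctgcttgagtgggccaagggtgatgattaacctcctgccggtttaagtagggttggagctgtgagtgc
Fgb: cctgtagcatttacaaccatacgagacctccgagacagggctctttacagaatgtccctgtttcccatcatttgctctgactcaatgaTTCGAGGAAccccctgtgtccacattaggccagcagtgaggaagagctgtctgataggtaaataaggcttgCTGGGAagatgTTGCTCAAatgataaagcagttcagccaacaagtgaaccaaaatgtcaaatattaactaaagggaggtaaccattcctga
Fgg: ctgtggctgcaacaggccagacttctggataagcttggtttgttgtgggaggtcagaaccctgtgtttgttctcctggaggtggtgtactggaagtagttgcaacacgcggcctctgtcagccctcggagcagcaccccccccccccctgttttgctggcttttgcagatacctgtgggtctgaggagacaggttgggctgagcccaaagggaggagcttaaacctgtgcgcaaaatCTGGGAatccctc
CTGGGA occurs in all 3, starting 121 bases before the start in Fga, 91 in Fgb and 13 in Fgg. TTGCNNAA and TTCNNNGAA occur in Fga and Fgb, and no printed match overlaps another. Of 32851 promoter windows of this length in the table, 27% hold CTGGGA, 9.56% TTGCNNAA and 7.02% TTCNNNGAA on either strand. For the 31 members with an entry there (33 windows), 15 windows hold CTGGGA, 9 hold TTGCNNAA and 6 hold TTCNNNGAA. Those counts describe the letters, and they carry no test of binding.

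The vitamin K dependent clotting factors held no limma call in either model, though all 4 changes were negative in Luc. F7, the factor that starts clotting with tissue factor, had 22.3, 29.4, 11.4 and 19.4 TPM in Luc Aoah tumours, against 36.8, 38.4, 42.2 and 32.6 TPM in Luc vector tumours. The groups were separate by a narrow margin (log2 change -0.90 ± 0.31 (SE), adjusted p = 0.0524). It had 16.3, 15.7 and 24.4 TPM in LucOS Aoah tumours, against 13.4, 40.3 and 29.1 TPM in LucOS vector tumours (log2 change -0.43 ± 0.36 (SE), adjusted p = 0.723). F10, the protease that produces thrombin and the genomic neighbour of F7, had 195, 203, 124 and 169 TPM in Luc Aoah tumours, against 256, 287, 282 and 264 TPM in Luc vector tumours. Its Luc groups were separate as well, at -0.68 ± 0.24 (SE), adjusted p = 0.0563.

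F10 had 173, 156 and 181 TPM in LucOS Aoah tumours, against 116, 290.3 and 234 TPM in LucOS vector tumours, with overlap (-0.23 ± 0.28 (SE), adjusted p = 0.842). F9, the haemophilia B factor, had 53.5, 59.1, 41.5 and 55.3 TPM in Luc Aoah tumours, against 68.3, 76.1, 74.8 and 66.7 TPM in Luc vector tumours. All Luc Aoah values were below all Luc vector values, with a change of -0.45 ± 0.26 (SE), adjusted p = 0.191. F9 had 39.1, 32.6 and 59.7 TPM in LucOS Aoah tumours, against 36.7, 87.9 and 82.5 TPM in LucOS vector tumours, where the groups overlapped (-0.59 ± 0.30 (SE), adjusted p = 0.455). Prothrombin, F2, had log2 changes of -0.38 in Luc and 0.02 in LucOS.

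The contact system, which links clotting to the release of bradykinin, held 1 rise and 2 falls in Luc. Klkb1 encodes plasma prekallikrein, the precursor of the protease that frees bradykinin from kininogen. It had 22.3, 21.5, 13.1 and 29.1 TPM in Luc Aoah tumours, against 9.82, 8.76, 11.9 and 7.68 TPM in Luc vector tumours. The groups did not overlap, and the log2 change was 1.06 ± 0.32 (SE), adjusted p = 0.0349. That call was lost without Luc Aoah 1 or 4, or Luc vector 1, 3 or 4 (adjusted p up to 0.112).

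Klkb1 had 17.1, 14.1 and 30.1 TPM in LucOS Aoah tumours, against 3.24, 10.2 and 7.85 TPM in LucOS vector tumours. The LucOS groups were separate too, with a change of 1.45 ± 0.37 (SE), adjusted p = 0.0890, the third smallest p of the members there. F11, its neighbour on chromosome 8 and the gene of a related protease, had log2 changes of -0.19 in Luc and 0.12 in LucOS. The ratio of Klkb1 to F11 was 2.58 to 3.74 in Luc Aoah tumours, against 1.19 to 1.36 in Luc vector tumours, and 2.34 to 3.52 in LucOS Aoah tumours, against 0.931 to 1.05 in LucOS vector tumours. Of the words of Klkb1, 42.7% also occur in the gene model Gm45753, so part of its reads could have been counted elsewhere.

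The kininogens are the substrate of that protease. Kng1 had 903, 1165, 628 and 942 TPM in Luc Aoah tumours, against 1529, 1904, 1797 and 1326 TPM in Luc vector tumours. It was lower in every Luc Aoah tumour (log2 change -0.87 ± 0.24 (SE), adjusted p = 0.0243), a call lost without Luc Aoah 1, 3 or 4 or Luc vector 1 or 3 (adjusted p up to 0.0809). Kng1 had 664, 711 and 883 TPM in LucOS Aoah tumours, against 803, 1603 and 1285 TPM in LucOS vector tumours, with overlap (-0.66 ± 0.27 (SE), adjusted p = 0.332). Its neighbour and copy Kng2 had 158, 218, 120.5 and 151 TPM in Luc Aoah tumours, against 287, 433, 372 and 282 TPM in Luc vector tumours. The groups were separate with a change of -1.09 ± 0.26 (SE), adjusted p = 0.0136, and no single tumour left out ended that call.

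Kng2 had 106, 111 and 146 TPM in LucOS Aoah tumours, against 128, 311 and 197 TPM in LucOS vector tumours, with overlap (-0.72 ± 0.30 (SE), adjusted p = 0.338). The kininogens share 17.2% of the words of Kng1 and 19.4% of those of Kng2, so their reads may be split between them. The ratio of Kng2 to Kng1 was 0.160 to 0.192 in Luc Aoah tumours, against 0.187 to 0.228 in Luc vector tumours. Factor XII, F12, which activates prekallikrein, had log2 changes of -0.71 in Luc and 0.50 in LucOS and passed in neither.

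The cofactor and crosslinking genes had the median log2 change nearest to 0 of any role in Luc, at 0.03. Factor V, F5, the cofactor of factor X, had 22.5, 29.8, 16.6 and 28.3 TPM in Luc Aoah tumours, against 17, 17.3, 30.3 and 26.2 TPM in Luc vector tumours, with overlap and a log2 change of 0.10 ± 0.33 (SE), adjusted p = 0.827. F5 had 21.9, 17.1 and 34 TPM in LucOS Aoah tumours, against 10.2, 30.6 and 11.3 TPM in LucOS vector tumours (0.58 ± 0.38 (SE), adjusted p = 0.618). F13b, the carrier subunit of the fibrin-crosslinking factor XIII, had 98.7, 77.4, 58.1 and 85.6 TPM in Luc Aoah tumours, against 86.1, 96.4, 68 and 75.2 TPM in Luc vector tumours, with a change of -0.04 ± 0.19 (SE), adjusted p = 0.888. It had 64.3, 63.4 and 61.2 TPM in LucOS Aoah tumours, against 63.7, 67.7 and 92.8 TPM in LucOS vector tumours (-0.22 ± 0.22 (SE), adjusted p = 0.780). The sign in Luc depended on single tumours for both genes and, for F13b, on centring each tumour on its median gene, where the change was 0.28.

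Of the 4 anticoagulants only Pros1 was called in Luc. It encodes protein S, the cofactor of activated protein C. Pros1 had 22.2, 31.8, 10.8 and 16.1 TPM in Luc Aoah tumours, against 46.6, 45.9, 56.5 and 52.7 TPM in Luc vector tumours. Every Luc Aoah tumour was below every Luc vector tumour (log2 change -1.37 ± 0.31 (SE), adjusted p = 0.00983), and no single tumour left out ended the call. Pros1 had 22.9, 17.2 and 29.2 TPM in LucOS Aoah tumours, against 19.9, 48.2 and 35.3 TPM in LucOS vector tumours, with overlap (-0.50 ± 0.36 (SE), adjusted p = 0.650). Set against each other after their values were seen, C4bp and Pros1 had a ratio of 6.63 to 18.5 in Luc Aoah tumours, against 1.08 to 1.22 in Luc vector tumours. Since both genes already separated these Luc groups, in opposite directions, the ratio had to separate as well. For LucOS it was 5.45 to 7.26 with Aoah, against 1.51 to 3.20 with the vector.

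Proc, the gene of protein C itself, had 58.7, 75.3, 29.5 and 62.7 TPM in Luc Aoah tumours, against 95.2, 75.3, 120.0 and 75.5 TPM in Luc vector tumours, with overlap and a change of -0.74 ± 0.34 (SE), adjusted p = 0.114. It had 52, 41.2 and 92.8 TPM in LucOS Aoah tumours, against 33.8, 86.2 and 64.1 TPM in LucOS vector tumours (0.03 ± 0.39 (SE), adjusted p = 0.994). Heparin cofactor II, Serpind1, an inhibitor of thrombin, had 144, 128, 77.2 and 156 TPM in Luc Aoah tumours, against 129, 103, 111 and 90.9 TPM in Luc vector tumours, with overlap (0.18 ± 0.27 (SE), adjusted p = 0.627). It had 87.5, 85 and 138 TPM in LucOS Aoah tumours, against 61.2, 114 and 137 TPM in LucOS vector tumours (0.03 ± 0.32 (SE), adjusted p = 0.988). Antithrombin, Serpinc1, had log2 changes of -0.22 in Luc and -0.03 in LucOS.

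In fibrinolysis, Serpinf2 fell in Luc. It encodes alpha-2-antiplasmin, the main inhibitor of plasmin, and had 131, 146, 62 and 95.2 TPM in Luc Aoah tumours, against 287, 209.9, 242 and 216 TPM in Luc vector tumours. The groups were separate, at -1.19 ± 0.32 (SE), adjusted p = 0.0230, a call lost without Luc Aoah 3 or 4 or Luc vector 1 or 3 (adjusted p up to 0.0732). Serpinf2 had 98.3, 75.4 and 133 TPM in LucOS Aoah tumours, against 83.8, 219 and 218 TPM in LucOS vector tumours, with overlap (-0.67 ± 0.37 (SE), adjusted p = 0.515). Plasminogen, Plg, the precursor of plasmin, had 229, 335, 112 and 242 TPM in Luc Aoah tumours, against 443, 435, 560.3 and 360.0 TPM in Luc vector tumours. All Luc Aoah values were lower, but the change of -1.05 ± 0.37 (SE), adjusted p = 0.0520 did not pass. Plg had 152, 143 and 329 TPM in LucOS Aoah tumours, against 160.1, 446 and 313 TPM in LucOS vector tumours, with overlap (-0.55 ± 0.42 (SE), adjusted p = 0.689).

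In the antigen model as a whole, 1 of 40 members, C8g, was higher with Aoah and none lower, where 0.965% of all genes were called in either direction. At an unadjusted p under 0.05, 11 of the 40 passed, against 12.3% of all genes, and in Luc 22 of the 40, against 41.8% of all genes. The median log2 change in LucOS was 0.02 over the members and -0.02 over all genes. The call for C8g was lost without LucOS Aoah 1 or 3, LucOS vector 1 or 3 or Luc Aoah 1 (adjusted p up to 0.126). Without LucOS vector 2, 5 members were higher (C4bp, C8g, C9, Klkb1 and Mbl2), where the higher calls over all genes were 299, against 101 with all tumours. Without LucOS vector 1, 3 were lower (C8b, Fga and Fgg) and none higher, where 30 genes in all were lower and 32 higher, against 29 and 101 with all tumours. Without Luc Aoah 2 Fgg was lower, as were 26 genes in all. Centring each tumour on its median gene gave 3 higher (C8g, Klkb1 and Mbl2) and 1 lower (Fgg), with 160 higher and 58 lower over all genes.

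The Luc and LucOS comparisons share no tumour. All 15 members called in Luc had the same sign in LucOS. Of these, Mbl1 (0.06 ± 0.31 (SE)) and C1ra (-0.11 ± 0.42 (SE)) were near 0 there. The share of the same sign among all genes called in Luc is not given here, so this count has no like background. Across the 40 members the Pearson correlation of the log2 changes was 0.84 and Spearman's 0.79, with 31 of the same sign. Over all 13466 genes the values were 0.55 and 0.37, with 62.4% of the same sign. Genes are not independent replicates, and within each comparison all members share the same libraries, so these values carry no p. The changes lay farthest apart for Mbl1 (0.06 in LucOS and 1.43 in Luc), C3 (-0.19 and -1.47) and F12 (0.50 and -0.71).

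**Figure D3:**
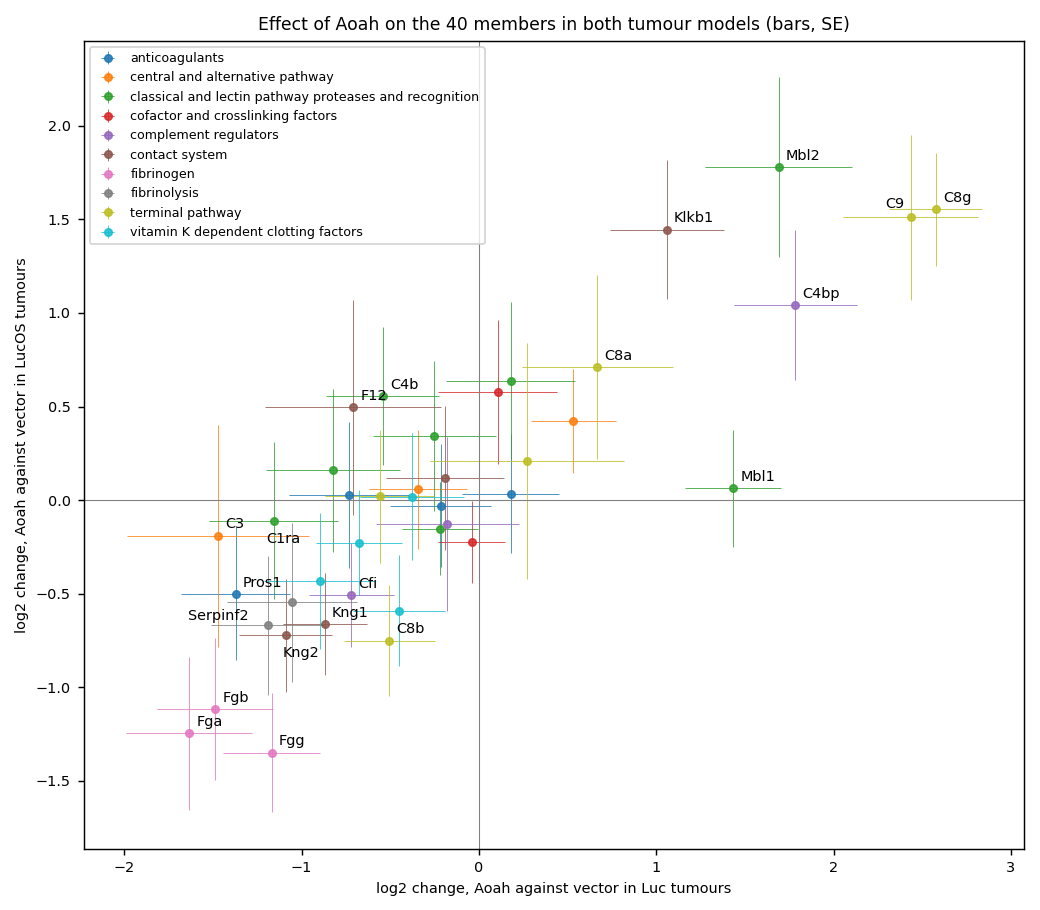
Each point is one member, placed by its log2 change with Aoah in Luc tumours (horizontal axis) and in LucOS tumours (vertical axis), with bars for the SE and colours for the role. The 3 fibrinogen chains lie at the lower left (-1.63 and -1.25 for Fga), C8g, C9, C4bp, Mbl2 and Klkb1 at the upper right, and Mbl1 far to the right at a LucOS change of 0.06.

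The difference between the 2 Aoah effects, LucOS minus Luc, was called by limma for none of the 40 members and for 0.00743% of all genes. At an unadjusted p under 0.05, 3 of the 40 members passed in limma, where 1378 of all 13466 genes did. They were Mbl1, C8g and C4b, with differences of -1.37, -1.02 and 1.10 (adjusted p = 0.443 for each). The mean of both effects, which uses the same tumours as the single comparisons, was called higher for 6 members (background 8.02%) and lower for 9 (background 6.68%). The higher ones were again C8g (2.06), C9 (1.97), Mbl2 (1.74), C4bp (1.41), Klkb1 (1.25) and Mbl1 (0.75). The lower ones were Fga (-1.44), Fgb (-1.30), Fgg (-1.26), Pros1, Serpinf2, Kng2, Kng1, C8b and Cfi. C8g, C9, C4bp, Mbl2, Klkb1, the fibrinogen chains and Kng2 kept this call under all 24 alternatives tried, and the count of lower members was 14 without LucOS vector 1, where the lower calls over all genes were 1274, against 900 with all tumours.

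The antigens themselves were compared within each plasmid. Among vector tumours, LucOS against Luc, limma called none of the 40 members and 0% of all genes. An unadjusted p under 0.05 was reached by 1918 of all 13466 genes and by 1 member. That was Kng2 (log2 change -0.76 ± 0.28 (SE), adjusted p = 0.344). Of the 40 changes there 35 were negative, where only 3910 of all 13466 genes had a positive change. The median of the 40 was -0.39, against -0.25 over all genes. Among Aoah tumours none of the members was called either, where 0.0817% of all genes were. An unadjusted p under 0.05 was reached by 944 of all 13466 genes and by 2 members. Those were Mbl1 (-0.92 ± 0.29 (SE), adjusted p = 0.461) and C8g (-0.85 ± 0.28 (SE), adjusted p = 0.523). Values in the LucOS Aoah group lay below all those in the Luc Aoah group for 3 members (Mbl1, C8g and C8b) and above them for none, where 5.28% and 2.20% of all genes did so.

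**Figure D4:**
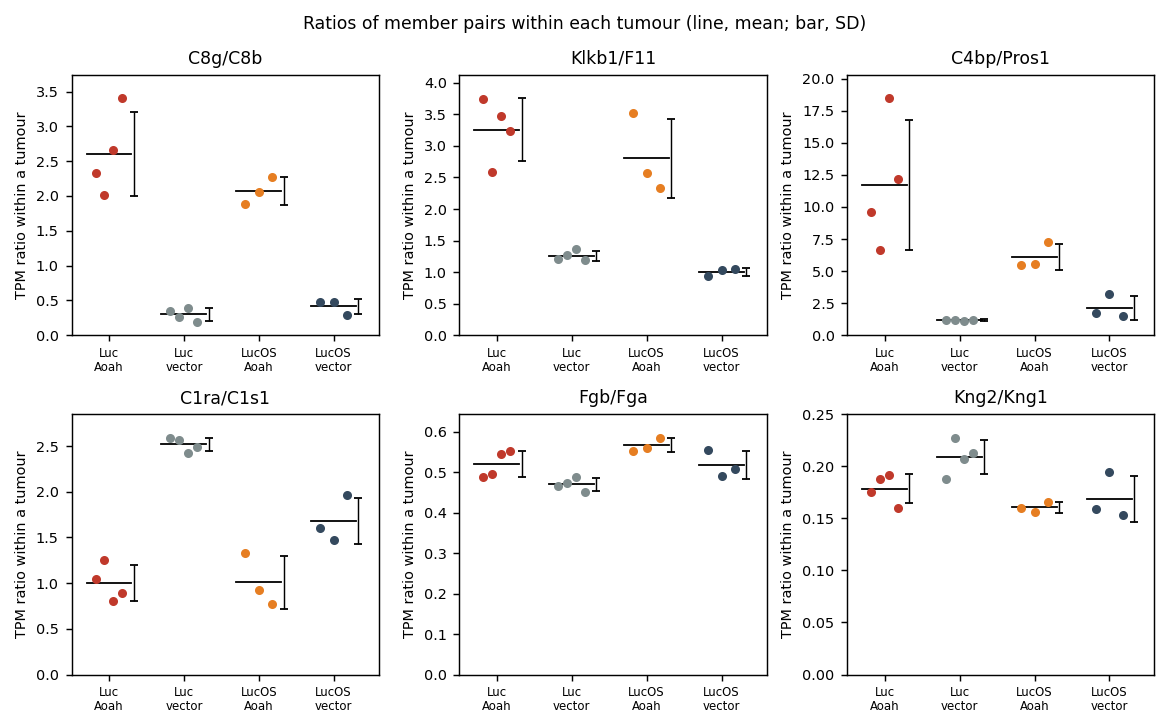
Points are the ratio of 2 members' TPM within a single tumour, with the group mean as a line and the SD as a bar; each axis starts at 0. The ratios C8g/C8b, Klkb1/F11 and C4bp/Pros1 are higher and C1ra/C1s1 is lower in all Aoah tumours than in the vector tumours of the same model, while Fgb/Fga stays between 0.452 and 0.586. For C8g/C8b and C4bp/Pros1 the Luc groups had to separate, since both genes of each pair already did, in opposite directions.

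Other genes of both pathways were read from lists of 33 each. Of 23 other complement genes tested in Luc 4 rose and none fell. Among them were the membrane regulators Cd59a (log2 change 1.33 ± 0.23 (SE), adjusted p = 0.00183) and Cd55 (1.33), which protect host cells from the pore and from the convertases, and the collectin gene Colec11 (0.89). Cd59a averaged 57.4 ± 10.3 TPM in Luc Aoah tumours and 22.2 ± 4.96 TPM in Luc vector tumours (SD, n = 4 each). The median over these 23 genes was 0.23.

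Of 27 other coagulation and fibrinolysis genes tested in Luc 3 rose and 7 fell, with a median of -0.15. Among the falls were the broad protease inhibitor gene A2m (-4.72 ± 0.84 (SE), adjusted p = 0.00419) and F13a1, the catalytic subunit of factor XIII (-0.81, with a mean under 2 TPM in each group). A2m averaged 11.3 ± 5.43 TPM in Luc Aoah tumours and 305 ± 72.7 TPM in Luc vector tumours (SD, n = 4 each). The rises were the tissue factor pathway inhibitor Tfpi (0.88), the urokinase gene Plau (0.90) and Tfpi2 (0.57). In LucOS none of either list passed, where limma gave 5 of 23 and 10 of 27 at an unadjusted p under 0.05.

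Markers of other cell types moved with the Aoah groups too. In Luc, 3 of 10 macrophage and Kupffer cell markers rose and none fell, and their summed level was 480 to 514 TPM in Luc Aoah tumours, against 177 to 285 TPM in Luc vector tumours. Lyz2 made up much of that sum, with means of 285 of 496 TPM in Luc Aoah and 77.6 of 224 TPM in Luc vector tumours. Of the 10 markers, only Cd68 and Csf1r had negative changes (-0.20 and -0.35), neither called. Of 10 T cell markers 7 rose and none fell (53.4 to 92.3 TPM in Luc Aoah tumours, against 5.79 to 18.3 TPM in Luc vector tumours), and of 8 neutrophil markers tested none rose and 5 fell (52.0 to 102 TPM, against 143 to 400.2 TPM). Stellate and fibroblast markers rose in 4 of 9 cases and endothelial markers in 4 of 10, with none lower in either list. Of the hepatocyte markers, 3 of 15 rose (Alb, Ttr and Tdo2) and 1 fell (Ahsg). Their sum was 11312 to 31493 TPM in Luc Aoah tumours, against 14999.7 to 22642 TPM in Luc vector tumours, and those ranges overlapped. Of 3 platelet markers tested 1 fell, the chemokine gene Ppbp (-1.58 ± 0.38 (SE), adjusted p = 0.0144), at 0.48 to 0.90 TPM in Luc Aoah tumours, against 1.53 to 5.98 TPM in Luc vector tumours. Of 3 cholangiocyte markers tested 1 fell, the transcription factor gene Sox9 (-2.38 ± 0.29 (SE), adjusted p = 0.000182), at 0.17 to 1.00 TPM in Luc Aoah tumours, against 3.24 to 9.85 TPM in Luc vector tumours. Among the same lists, 2 T cell markers and 1 hepatocyte marker (Ttr) rose in LucOS and no marker fell. The T cell sum there was 55.6 to 152 TPM in LucOS Aoah tumours, against 12.9 to 36.8 TPM in LucOS vector tumours, and the neutrophil sum was 127 to 454 TPM, against 405 to 915 TPM. No marker of these lists was at 0 in every tumour, and Ly6g, the platelet markers Gp1ba and Treml1 and the cholangiocyte markers Krt7 and Cftr were under 1 TPM in each. The part of these cells in the changes of the complement and coagulation genes was not tested.

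The authors' deposited table for Luc, whose direction was read from its positive Aoah value (log2 fold change 5.01), called 9 of the 40 members higher and 12 lower, where 31.7% of all its genes were called. All 15 members called here were among those 21 in the authors' deposited table. The others were C1s1 (0.47), C8a (0.93) and Cfp (0.82) on the higher side and C3 (-1.17), F7 (-0.66) and Plg (-0.77) on the lower side. Its largest values were 2.93 for C8g and 2.79 for C9 on the higher side and -1.33 for Fga and -1.20 for Fgb on the lower side. In the authors' deposited table for LucOS (Aoah at 8.36), 3 members were higher (C8g, Klkb1 and Mbl2) and 3 lower (Fga, Fgb and Fgg), where 2.77% of all genes were called. The sign in the authors' deposited table was that found here for 34 of 40 members in Luc and 36 of 40 in LucOS.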

How the data were processed

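Poly-T selected mRNA of 14 tumours was sequenced, per the labels' protocols, which do not say whether libraries were directional, so reads of overlapping and antisense genes cannot be told apart. RSEM, DESeq2 and build mm39 are named without versions, per the submitters' processing notes; the sources used here do not name the aligner. The deposited expression values are log2(TPM + 1), which sum to 997292 to 999228 TPM per tumour when transformed back. The authors' deposited comparisons hold log2 fold changes, a Wald score and p-values, per the file headers. The deposited receptor repertoire table was not used.

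Genes with at least 1 TPM in at least 3 tumours were fitted on log2(TPM + 1) with limma 3.58.1 (R 4.3.3), one mean per group over all 14 tumours, trended and robust variance, and Benjamini-Hochberg adjustment over all genes at 0.05; a pseudocount of 1 understates changes of low genes. Changes are Aoah minus vector, or LucOS minus Luc. The procedure was tested on simulated data. Per-gene read counts were not analysed here, so no count test was run. Shared 50-base words were counted in GENCODE M21 transcripts, and neighbours and promoters come from RefSeq GRCm38.p6, whose coordinates differ from mm39.

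The members and lists were chosen with earlier results of these data known. Described in every tumour, per role, were the 2 members of smallest p in each Aoah comparison; of other pathway genes, the 3 of smallest p per direction; of further lists, the 1 or 2 of smallest p. Some genes that this rule names are not reported here. Alternatives varied the pseudocount, filter, scaling, variance model, samples fitted, a replicate block, and left out each tumour in turn, or Luc vector 1 and 3 together.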

Additional observations from a re-analysis of the deposited data

Results flagged for a closer look

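Mbl2 in Luc vector 3 stood at 68.6 TPM, above 55.6 to 56.5 TPM in the other Luc vector tumours. The gap to its nearest neighbour was 0.923 of the group's whole range. The threshold that it passed is passed by chance in about 1 of 20 groups. This was the only one past it among 80 combinations of member and Luc group examined. Groups of 3 tumours, and so both LucOS groups, were not examined. Luc vector 3 also had the highest Aoah of the vector tumours (54.8 TPM) and held the highest value of its group for 27 of the 40 members. Mbl2 was lower in Luc vector 3 than in any Luc Aoah tumour.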

How the results depend on the processing

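In Luc, the counts of 6 higher and 9 lower members became 2 and 0 without Luc vector 1 and 3. The lower count was 5 with no filter on low values and 14 with each pair of groups fitted alone. Leaving out 1 tumour gave 4 to 6 higher and 4 to 14 lower. In LucOS, the counts of 1 higher and 0 lower became 0 and 0 with no filter, with the pair fitted alone and without Luc vector 1 and 3, and 3 and 1 with each tumour centred on its median gene; leaving out 1 tumour gave 0 to 5 higher and 0 to 3 lower. For the mean of both effects, the 9 lower members became 5 with no filter and 4 without Luc vector 1 and 3, and leaving out 1 tumour gave 5 to 7 higher and 6 to 14 lower. The cause was not tested, and some of these settings also bring fewer tumours or added genes to the fit. No member was called for the difference of the effects or for the antigens under any of these.

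The labels do not say that the numbers in the titles pair tumours. The deviations of same-numbered tumours correlated between -0.55 and 0.10, and those of other-numbered tumours between -0.45 and 0.49. With groups of 3 or 4 tumours, such correlations cannot show whether tumours were paired. With a replicate block, members called were 5 higher and 4 lower in Luc, 0 higher in LucOS, and 5 lower for the mean effect. Signs that reversed were those of F13b in Luc when centred (0.28) and, leaving out 1 tumour, F13b in Luc (-0.15 to 0.10), F5 in Luc (-0.012 to 0.27), C3 in LucOS (-0.78 to 0.46) and Serpind1 in LucOS (-0.30 to 0.27), none of them called. Over all genes, the 2988 calls in Luc ranged from 355 without Luc vector 1 and 3 to 5251 without Luc Aoah 2, and were 1288 with no filter and 618 with the block; the 130 in LucOS ranged from 0 with the block to 353 without LucOS vector 2.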

Other observations

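Comparator lists of other liver-secreted proteins are given as values, with no explanation. Of 14 apolipoprotein genes 3 rose and 2 fell with Aoah in Luc, with a median log2 change of 0.39. Apoc1 (1.91 ± 0.25 (SE), adjusted p = 0.000352) and Apoc3 (1.96 ± 0.34 (SE), adjusted p = 0.00212), apolipoproteins of triglyceride-rich particles, had the smallest p. The summed level of all 14 averaged 27762 ± 6047 TPM in Luc Aoah and 15144 ± 1699 TPM in Luc vector tumours (SD, n = 4 each). In LucOS 2 of 14 rose (Apoc3 at 2.01 and Apoa5 at 1.68) and none fell.

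Of 18 other acute phase genes none rose and 6 fell in Luc, with a median of -0.59. The protease inhibitor gene Serpina3n changed by -3.34 ± 0.54 (SE), adjusted p = 0.00147, and Lbp, the lipopolysaccharide-binding protein, by -2.01 ± 0.42 (SE), adjusted p = 0.00670. In LucOS 1 of 18 fell, the serum amyloid gene Saa3, at -1.61 ± 0.29 (SE), adjusted p = 0.0217. Among the complement and coagulation members the residual SD on the log2 scale had a median of 0.50, against 0.37 over all genes tested, and ranged from 0.25 for F13b to 0.90 for C6.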
